A study of Mus musculus with 16 samples.

Results

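Wide domains of H3K27ac, the acetylation of histone H3 at lysine 27 that marks active promoters and enhancers, were examined in mouse neural stem cells. The domains were chosen by a measured value, their width: an autosomal island, the name for a region of enriched reads, was a member when it spanned 5000 bp or more in the wild-type (WT) H3K27ac list. This gave 489 domains of 18311 autosomal islands, and of 18633 islands in all. They made up 2.67% of the autosomal islands, 9.52% of the covered length (3.39 of 35.7 Mb) and 12.8% of the reads in islands. Widths ran from 5000 to 64800 bp with a median of 6000 bp. At the limit, 56 islands were exactly 5000 bp wide and 69 islands, at 4800 bp, fell just outside.

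The cells were cultured as neurospheres with bFGF and EGF from the telencephalic cortex of E14.5 embryos, and were fixed as attached cells on Matrigel. Chromatin immunoprecipitation and sequencing was done for 6 marks (H3K27ac, H3K4me1 and H3K4me3, H3K36me2 and H3K36me3, and H3K27me3) in cells labelled Setd5+/-, heterozygous for Setd5, and in WT cells. V5-tagged SETD5 was mapped in the WT-S5V5 cells. Each of the 13 groups has 1 library, so no value below has a replicate and no p-value is given. The labels do not say how the allele and the tag were made or whether a line is 1 clone. The 3 input samples are not analysed here.

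Acetylated chromatin is opened and read by the transcription machinery, and long stretches of H3K27ac are known from genes that give a cell its identity. H3K4me3 marks the region around active gene starts, and H3K4me1 without H3K4me3 marks enhancers. H3K36me3 is laid down along transcribed gene bodies, and H3K27me3 is the silencing mark of the Polycomb system. The name super-enhancer is usually given to clusters of enhancers that are joined and ranked by signal. The width rule used here is a different one, so the regions are called wide domains.

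Among 919 autosomal microRNA hairpins of the RefSeq table, 72 met a WT H3K27ac island and 7 lay in a wide domain. Those 7 sat in 4 domains. Both Mir9-1 (chr3:88215598-88215686, plus strand) and Mir9-2 (chr13:83738814-83738885, plus strand) were among them, and they give rise to the same mature RNAs. Their sequences are shown because the 17.6 and 11.8 kb domains that hold them meet no protein-coding gene. The mature parts are in capitals (RefSeq, GRCm38.p6).
Mir9-1 hairpin: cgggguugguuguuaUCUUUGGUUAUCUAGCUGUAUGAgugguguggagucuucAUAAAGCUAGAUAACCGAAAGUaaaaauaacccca
Mir9-2 hairpin: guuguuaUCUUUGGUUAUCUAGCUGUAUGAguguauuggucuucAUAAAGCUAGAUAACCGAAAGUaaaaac
Mature RNAs of these loci and of Mir125b-1 and Mir21a are given with the seed (bases 2 to 8, which pair with target messages) in capitals.
mmu-miR-9-5p: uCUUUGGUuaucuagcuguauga
mmu-miR-9-3p: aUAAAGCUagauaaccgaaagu
mmu-miR-125b-5p: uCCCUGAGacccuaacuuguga
mmu-miR-21a-5p: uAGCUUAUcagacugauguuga

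miR-9 is a brain microRNA that acts on the balance between progenitor growth and differentiation, miR-125b is enriched in the nervous system, and miR-21a is a widely expressed microRNA made from a gene within Vmp1. The 4 seeds differ from each other. The island over Mir9-1 was 21000 bp in Setd5+/- cells and 17600 bp in WT cells. The island over Mir9-2 was 11400 bp in Setd5+/- cells and 11800 bp in WT cells. The third hairpin with this seed, Mir9-3 on chromosome 7, lay in islands of 4400 bp in Setd5+/- cells and 3600 bp in WT cells, below the width limit. All 3 loci that encode miR-9-5p were thus acetylated in both genotypes. Of the hairpins with the miR-125b-5p seed, Mir125b-1 lay in islands of 5800 bp in Setd5+/- cells and 7200 bp in WT cells. Mir125a, Mir6367 and Mir6394 lay in none. Within 5 kb of Mir125a, H3K27ac covered 989 bp in Setd5+/- cells and 3389 bp in WT cells. Mir21a lay in islands of 8000 bp in Setd5+/- cells and 5400 bp in WT cells, and Mir21c, which shares its seed, lay in none.

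The starts of 120 protein-coding genes lay inside wide domains. Promoter windows, 250 bases before to 50 after the start, are shown for 4 of them whose products define or answer to this culture. Sox2 (chr3:34649745-34650044) encodes the transcription factor that maintains neural stem cells. Vim (chr2:13574061-13574360) and Fabp7 (chr10:57784673-57784972) encode the filament protein and the lipid carrier of radial glia. Dusp6 (chr10:99262981-99263280) encodes a phosphatase that dampens growth factor signalling through ERK. All 4 are on the plus strand, and capitals mark CCAAT or TATAAA on either strand (RefSeq, GRCm38.p6).
Sox2: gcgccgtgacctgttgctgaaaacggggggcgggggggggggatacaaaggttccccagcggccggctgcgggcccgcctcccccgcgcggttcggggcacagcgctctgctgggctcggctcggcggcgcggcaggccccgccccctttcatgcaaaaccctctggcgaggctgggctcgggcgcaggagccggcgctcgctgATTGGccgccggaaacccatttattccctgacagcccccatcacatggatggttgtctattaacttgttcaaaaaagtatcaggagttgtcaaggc
Vim: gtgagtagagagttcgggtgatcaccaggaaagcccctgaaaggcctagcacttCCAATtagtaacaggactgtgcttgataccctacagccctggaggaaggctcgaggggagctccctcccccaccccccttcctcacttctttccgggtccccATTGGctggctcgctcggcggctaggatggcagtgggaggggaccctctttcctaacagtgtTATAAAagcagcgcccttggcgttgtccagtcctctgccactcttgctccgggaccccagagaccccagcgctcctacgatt
Fabp7: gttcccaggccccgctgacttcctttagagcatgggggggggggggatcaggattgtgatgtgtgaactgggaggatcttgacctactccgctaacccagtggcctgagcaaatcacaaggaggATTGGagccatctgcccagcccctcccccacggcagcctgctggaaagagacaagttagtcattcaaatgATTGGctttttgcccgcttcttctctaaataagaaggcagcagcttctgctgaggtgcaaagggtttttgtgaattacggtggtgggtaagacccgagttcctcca
Dusp6: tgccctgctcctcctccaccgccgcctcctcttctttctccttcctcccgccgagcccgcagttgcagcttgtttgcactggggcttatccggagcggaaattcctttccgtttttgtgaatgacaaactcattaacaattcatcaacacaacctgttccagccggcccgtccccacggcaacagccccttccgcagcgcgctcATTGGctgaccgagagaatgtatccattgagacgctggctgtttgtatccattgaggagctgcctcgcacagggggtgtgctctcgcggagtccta

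Counted over promoter windows on both strands, CCAAT occurred in 48.0% of the 152 windows in wide domains, in 39.0% of the 4743 windows in narrower WT H3K27ac islands and in 38.1% of all 20085 autosomal windows. TATAAA occurred in 13.8%, 7.32% and 12.7% of these sets in the same order, and GGGCGG in 48.7%, 57.3% and 47.0%. The palindrome CACGTG occurred in 3.29%, 10.3% and 7.89%. The median number of CG dinucleotides per window was 15, 20 and 14. Windows of 1 gene with several starts overlap, and none of these shares was tested.

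The single widest domain, 64.8 kb over Cwc22 on chromosome 2 (chr2:77887201-77952000), a splicing factor gene, stood apart in its reads. The Setd5+/- islands that met it held 138 reads per kb, and the WT domain itself held 182 reads per kb. Here and below, Setd5+/- reads per kb of a domain are those of the Setd5+/- islands that meet it. They are counted over the full width of these islands, also beyond the domain's edges. A pair of neighbouring domains at Tmem267 on chromosome 13 had 254 and 82.2 reads per kb in Setd5+/- cells and 258 and 92.7 reads per kb in WT cells. The highest of the other 486 domains had 62.2 WT reads per kb, and the median of all 489 was 37.5, against 29.5 over all autosomal islands. The Cwc22 domain lacked both H3K4me3 and H3K4me1. It lay wholly in H3K36me3 and SETD5-V5 islands. Leaving out these 3 domains gave a length kept in Setd5+/- cells of 79.5%, against 80.01% with them.

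Next in width came Ptn, the gene of the secreted growth factor pleiotrophin, with a domain of 29.0 kb on chromosome 6, and Sox2 with 22.2 kb (chr3:34648001-34670200), which also overlapped Sox2ot, the long noncoding RNA gene around it. Lrig1, whose product restrains EGF receptor signalling, had 17.8 kb. The Mir9-1 locus had 17.6 kb, with a further 14.0 kb domain beside it. Upstream of Mir9-2 lay a 16.8 kb domain, 45.3 kb from Mef2c, a neuronal transcription factor gene. A 16000 bp domain on chromosome 13 was 426 kb from its nearest gene, Ccnh. Then followed Tcf4 (14.2 kb), a partner of proneural factors, Nfib (14.0 kb), a transcription factor of glial and stem cell programmes, and Kcnd3 (13.8 kb), a potassium channel gene. The nuclear RNA Malat1 had 13.4 kb, and Myh9, a non-muscle myosin, 13.2 kb. Adgrg1, an adhesion receptor of cortical progenitors, had 12.6 kb. Meis2, a patterning homeobox factor, and Slc1a3, the radial glial glutamate transporter, had 12.4 kb each, and Nfix and Zeb1 had 12.2 kb each. In all, 42 domains reached 10000 bp.

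Several genes held more than 1 wide domain. Npas3, a bHLH-PAS factor of neural progenitors, met 7 domains that summed to 49.6 kb. Tcf4 met 6 with 51.4 kb, and Nfia, the glial partner of Nfib, met 6 with 41.2 kb. Maml2, a Notch coactivator, met 4 domains, as did Map4k4 and Nav2. In total 44 genes met 2 or more domains. Of the 489 domains, 378 met a protein-coding gene and 362 genes were met, which is 1.75% of the 20665 autosomal coding genes. A gene start lay inside 112 domains, 266 lay within a gene without a start, and 111 lay between genes. These last were a median of 45322 bp from the nearest gene, with 33 farther than 100 kb. The gene named for such a domain is the nearest one and need not be its target.

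Gene lists for the tissue gave the following counts of members that met a wide domain, beside a background of 2.39% of all 20665 autosomal coding genes for the 654 wide domains of Setd5+/- cells and 1.75% for the 489 of WT cells. Of 29 genes of neural stem cells or radial glia, 10 met a wide domain in Setd5+/- cells and 8 did in WT cells. The WT members were Sox2, Vim, Fabp7, Slc1a3, Sox1, Ptprz1, Ednrb and Egfr. Of 35 genes of the growth factor response, 7 did in Setd5+/- cells and 10 in WT cells, among them the ERK feedback genes Dusp6, Spry1, Spry2, Spry4 and Spred1, the ERK-driven factor Etv1, and Myc, Ccnd1 and Ccnd2. Of 19 Sox, Pou3f and Zic factors, 6 did in Setd5+/- cells and 7 in WT cells. Of 21 glial lineage genes, 6 did in Setd5+/- cells and 5 in WT cells (Nfia, Nfib, Nfix, Sox8 and Zeb1). In the order given, these are 34.5%, 20%, 31.6% and 28.6% of the list in Setd5+/- cells and 27.6%, 28.6%, 36.8% and 23.8% in WT cells. Of the 654 wide Setd5+/- domains, 249 lay on chromosomes 1, 4 and 15, as did 82 of the 489 of WT cells. Neither these list counts nor those of the next paragraph leave these chromosomes out. None of the differences between the genotypes was tested.

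Other lists had fewer members that met a wide domain, though not always a lower share of the list. Of 25 Wnt and Hedgehog genes, 4 met a wide domain in each genotype, and in WT cells they were Fzd9, Wnt5a, Ptch1 and Gli2. The Notch pathway gave 5 of 22 (22.7%) in Setd5+/- cells and 3 of 22 (13.6%) in WT cells (Notch1, Lfng and Maml2). Forebrain patterning factors gave 2 of 26 in Setd5+/- cells and 3 of 26 in WT cells (Otx1, Meis1 and Meis2). Proneural and neuronal genes gave 4 of 25 in Setd5+/- cells and 2 of 25 in WT cells, Map2 among them. Chromatin regulators gave 2 of 25 in each genotype, in WT cells Setd5 and Chd7. Housekeeping genes gave 4 of 21 (19.0%) in each genotype, in WT cells Ubb, Malat1 and Neat1 among them. Malat1 and Neat1 are noncoding, so the background of coding genes does not cover them. Of 25 Hox genes, 3 met a wide domain in Setd5+/- cells (background 2.39%) and none did in WT cells (background 1.75%). Microglia and blood, endothelium and mesenchyme, and pluripotent and other lineage genes gave none in either genotype.

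Markers of cell types were also read, by whether they met H3K27ac of any width in the span of the gene. All 12 neural stem cell markers did in both genotypes, with 62.2 kb in Setd5+/- cells and 69.1 kb in WT cells. Slc1a3 on chromosome 15 alone gave 34884 bp of this in Setd5+/- cells and 38207 bp in WT cells. Of 6 neuronal markers on autosomes, none did in Setd5+/- cells and Snap25 alone did in WT cells; Rbfox3, Tubb3 and Tbr1 had none in either. Oligodendrocyte markers gave 2 of 5 in each (Olig1 and Olig2), and astrocyte markers 2 of 5 in Setd5+/- cells and 3 of 5 in WT cells, with none at Gfap. In the 5 microglia and blood markers on autosomes, the Setd5+/- list had 1.6 kb at Ptprc and the WT list none. Ptprc is on chromosome 1, where H3K27ac covered 6.25 Mb in Setd5+/- cells and 2.58 Mb in WT cells. In the 6 markers of endothelium and mesenchyme, Pecam1 alone had 10.2 kb in Setd5+/- cells and 7.2 kb in WT cells. The 4 pluripotent markers had none. No share of all coding genes is set beside these counts, so they do not settle the identity of the culture.

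Wide domains carried both kinds of H3K4 methylation. H3K4me3 covered a mean of 48.9% of a wide domain, against 53.1% of islands of 2000 to 4800 bp and 59.7% of islands under 2000 bp. H3K4me1 covered 73.0%, 63.8% and 55.5% in the same order. By length, 33.3% of the wide domains lay under both marks, 38.8% under H3K4me1 alone, 15.2% under H3K4me3 alone and 12.7% under neither. H3K4me3 was absent from 121 domains, covered 90% or more of 97 and covered part of the other 271. It was absent from 24.7% of the wide domains and 32.6% of all autosomal WT H3K27ac islands. It covered 90% or more of 7247 of these 18311 islands. H3K4me1 was absent from 3 wide domains (0.613%), against 21.6% of all these islands. A longer region misses a mark less easily. Domains with a gene start inside had a mean H3K4me3 share of 79.0%, those within a gene without a start 43.2%, and those between genes 32.0%.

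**Figure D1:**
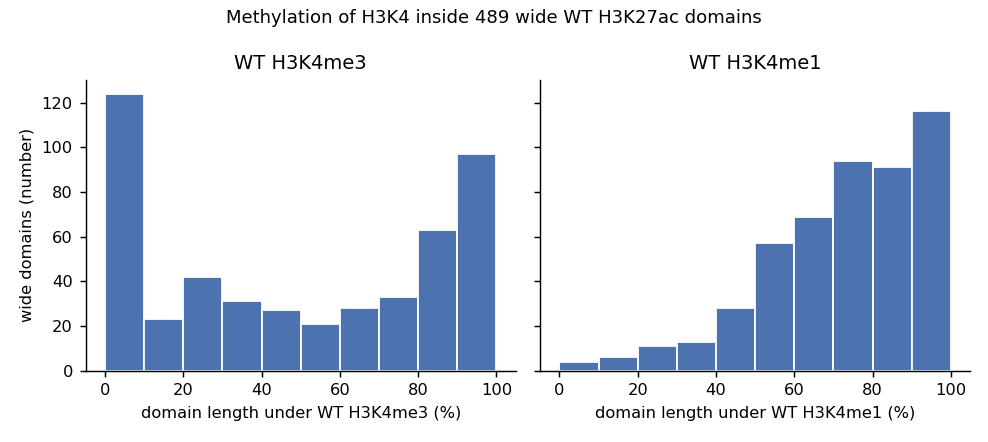
Share of each of the 489 wide WT H3K27ac domains under WT H3K4me3 (left) and WT H3K4me1 (right), in percent of domain length, as numbers of domains in steps of 10 points. H3K4me3 piles up at both ends, with 121 domains at 0 and 97 at 90% or more, while H3K4me1 lies mostly toward the high end.

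The widest domains with H3K4me3 over 90% or more were those of Sox2 (91.9%), the pair upstream of and over Mir9-2 (97.6% and 96.6%), Meis2 (93.5%), a 10.4 kb domain 368 bp from Pou3f3, a progenitor POU factor gene (92.3%), one 52.7 kb from Ppara (100%), and Dusp6 (90.0%), then those of Tcf4, Qk and one beside Nfib. After the dense Cwc22 domain, the widest domains without any H3K4me3 lay in Kcnd3 (13.8 and 9.0 kb), Maml2, Rab5c, Smarcc1, Tmem267, Map4k4 and Epn2, and 213 kb from Myc. Such gene-internal domains without H3K4me3 had H3K4me1 over 79.7% of their length in the first Kcnd3 domain and 98.0% in Epn2.

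No wide domain met H3K27me3 in either genotype. Such overlap was rare throughout, with 78 of all 18311 autosomal WT H3K27ac islands (0.426%) in WT cells, so the 0 of 489 is near the background. H3K36me3 met 253 wide domains (51.7%), against 28.4% of islands of 2000 to 4800 bp and 16.3% of those under 2000 bp. A longer region meets another list more easily, so the covered share is the fairer figure: it averaged 34.3%, 20.8% and 13.9%. SETD5-V5 met 62 wide domains (12.7%), against 6.31% and 4.05% of the narrower classes, with mean covered shares of 5.79%, 3.43% and 3.31%. Of the 62, 2 lacked H3K36me3, and so did 49 of the 410 islands of 2000 to 4800 bp that met SETD5-V5. A further 193 domains had H3K36me3 without SETD5-V5. H3K36me2, a mark of broader active chromatin, met 120 domains (24.5%), against 14.4% and 8.50% of the narrower classes, with mean covered shares of 15.7%, 12.3% and 7.98%.

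SETD5-V5 covered 44.8% of the Ptn domain, 67.8% of the Mir9-2 domain, 54.8% of the Fabp7 domain and 9.68% of the Slc1a3 domain. It covered 42.1% of a domain at Pkm, the pyruvate kinase gene, and all of one in Smarcc1, a chromatin remodeller subunit. It met neither the Sox2, the Mir9-1 nor the Dusp6 domain. The SETD5-V5 and H3K36me3 lists were called with an 800 bp window, which blurs their edges relative to the 200 bp steps of H3K27ac.

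Setd5 itself, the gene for which the Setd5+/- cells are heterozygous, held a wide domain of 5.0 kb within the gene, with no listed start inside it (chr6:113077601-113082600). Setd5+/- H3K27ac covered 96.0% of it. The Setd5+/- island there was 7200 bp wide, ran past the domain and held 25.4 reads per kb, while the WT domain held 36.2 reads per kb. H3K4me3 covered all of it in both genotypes. H3K36me3 covered none of it in Setd5+/- cells and 84.0% in WT cells. Island lists do not show the altered allele, so this is no check of the label.

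In Setd5+/- cells, H3K27ac islands covered 80.01% of the length of the wide WT domains (2.72 of 3.39 Mb). The figure was 66.9% for WT islands of 2000 to 4800 bp and 52.6% for those under 2000 bp. Domains at the limit of 5000 bp kept 79.1%, and islands of 4800 bp kept 71.1%. The median domain kept 85.2%, and the quartiles were 69.0% and 95.1%. Length was kept fully in 86 of the 489 domains, against 5497 of all 18311 autosomal WT islands. In islands of 2000 to 4800 bp it was kept fully in 1502 of 6497. Of the domains, 326 met a single Setd5+/- island and 151 met 2 or more, up to 5. Of all 18311 islands, 12200 and 514 did. A domain chosen for its width in 1 library can lose length in another by that choice alone. The Setd5+/- H3K27ac list held 1019278 reads in islands and the WT list 1140854, and the part of depth in the length kept was not tested.

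Under 50% of the bases was kept in 47 of the 489 wide domains, or 9.61% (95% Wilson interval 7.31 to 12.5%, counting error only), where the background over all autosomal WT islands was 35.2%. No Setd5+/- island met 12 domains, or 2.45% (1.41 to 4.24%), against a background of 30.6%. Most islands of that background are narrower, and a longer region misses another list less easily. In islands of 2000 to 4800 bp these shares were 24.3% and 16.9%. In the 69 islands of 4800 bp they were 18.8% and 7.25%. The part of width in these differences was not tested. The 47 had a median of 32.1 WT reads per kb, against 38.4 for the other 442, and a mean H3K4me3 share of 24.8% against 51.4%.

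**Figure D2:**
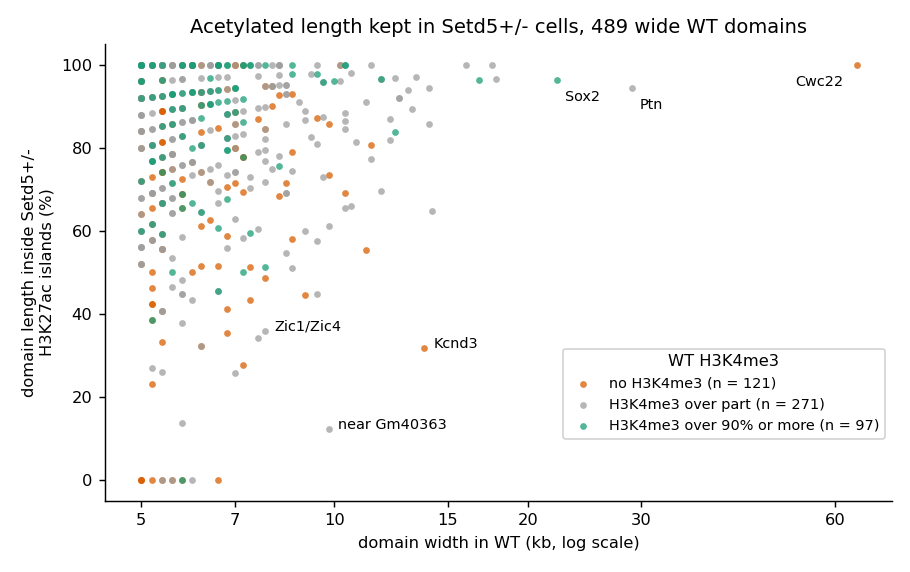
Length of each of the 489 wide WT domains that lay inside Setd5+/- H3K27ac islands (vertical axis, percent) against its WT width (horizontal axis, kb, log scale), coloured by WT H3K4me3. Sox2 and Ptn, at 22.2 and 29.0 kb, kept 96.4% and 94.5%, while Kcnd3 at 13.8 kb kept 31.9%.

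Where length was lost it lay mostly outside H3K4me3. In bases under H3K4me3 alone or under both marks, 90.3% and 88.8% of the wide domains' length was kept, against 77.1% under H3K4me1 alone and 53.5% under neither. By domain, those without H3K4me3 kept 72.1% of their length and 23 of 121 kept under 50%. Domains with H3K4me3 over 90% or more kept 86.6%, with 3 of 97 under 50%. The same split in islands of 2000 to 4800 bp gave 52.8% without H3K4me3 and 78.8% with it over 90% or more. Domains that met H3K36me3 kept 83.9% and those that did not kept 75.2%. Domains that met SETD5-V5 kept 83.9%, those with H3K36me3 but no SETD5-V5 kept 83.6%, and all domains without SETD5-V5 kept 79.3%. The median domain of these sets kept 85.3%, 88.2% and 85.2% in the same order. The first summed share includes the 64.8 kb Cwc22 domain, which was kept fully. Domains without H3K4me3 also had fewer WT reads per kb (a median of 35.0, against 40.3 where it covered 90% or more), and the part of read density was not tested.

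The neural stem cell genes lay on both sides of the 80.01% of length kept over all wide domains, and of the median domain's 85.2%. The Sox2 domain kept 96.4%, with 30.3 reads per kb in the Setd5+/- islands that met it and 48.8 reads per kb in the WT domain. Over all domains with an island in both genotypes the raw log2 density ratio had a median of -0.45, and -0.05 once centred on all shared autosomal islands, whose own raw median was -0.40. On that centred scale Sox2 stood at -0.29 and Ptn at -0.38. The domains kept 100% at Vim, 100% at Sox1, 98.0% at Slc1a3, 90.3% at Fabp7, 83.8% at Ptprz1 and 84.0% at Egfr. Those of Ednrb, the endothelin receptor gene, kept 42.9%. Slc1a3 is on chromosome 15, where the wide domains kept 91.6% together.

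Growth factor response genes kept between 78.6% (Spred1) and 100% (Spry2 and Ccnd2), with 96.0% at Dusp6 and 79.4% at Ccnd1. The glial factors kept 86.9% at Nfix, 88.0% at Zeb1, 92.2% at Nfia, 94.3% at Nfib and 100% at Sox8. Among the patterning and Zic genes values were spread more widely. Meis1 kept 100% and Meis2 83.9%, while Zic2 kept 51.3%, Otx1 50.0% and the domain shared by Zic1 and Zic4 35.9%. All of these last domains had H3K4me3 over 87.2% or more of their length.

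**Figure D3:**
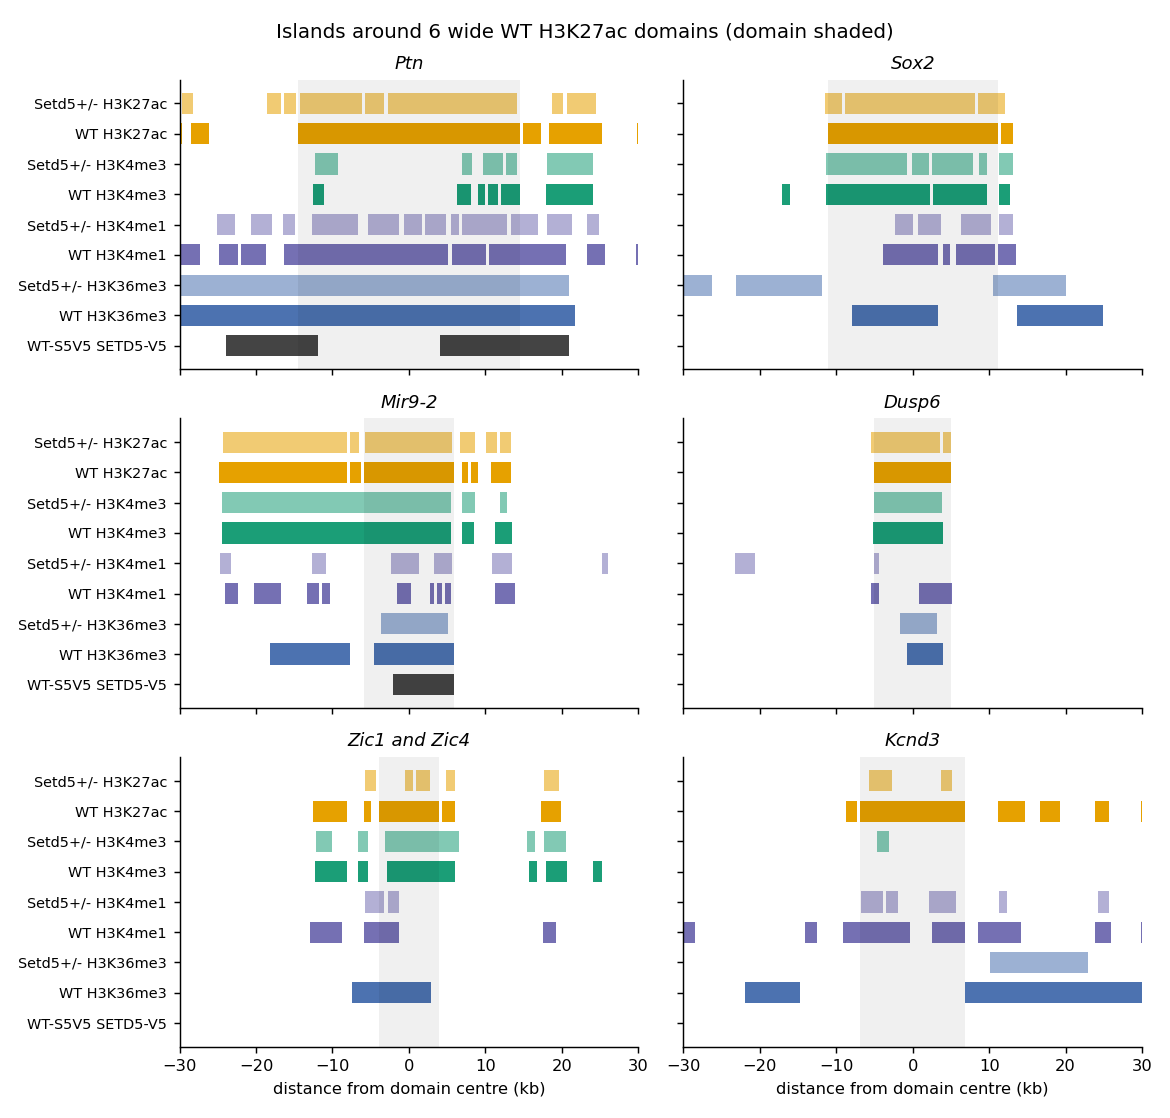
Islands within 30 kb of the centre of 6 wide WT H3K27ac domains, chosen after their values were seen, with Setd5+/- above WT for each histone mark and SETD5-V5 last; the shaded band is the domain. The Ptn, Sox2, Mir9-2 and Dusp6 domains are covered by Setd5+/- H3K27ac over 94.5 to 96.6%, and the Zic1 and Zic4 domain and the Kcnd3 domain over 35.9% and 31.9%.

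The largest lengths without Setd5+/- H3K27ac were in Kcnd3, where 9400 of 13800 bp were not covered, and at a domain on chromosome 6 near Gm40363, where 8600 of 9800 bp were not. The 3 domains within Kcnd3 together kept 29.8%. Domains with no Setd5+/- island at all lay, among others, in Exoc4 (6600 bp), an exocyst subunit gene, in Vmn2r22, a vomeronasal receptor gene, in Cdk19, a Mediator kinase gene, and in Tbc1d10a, and also near Gcfc2, at Gm40367 and again in Kcnd3. Fewer bases were also kept in the domains of Plat (44.7%) and in a domain at Tmem267 (25.7%). On chromosome 6, 7 of 50 domains kept under 50%, and without that chromosome the length kept was 80.8%. The share of domains with no Setd5+/- island was 1.595% of the 439 domains elsewhere, against 2.45% of all 489.

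Beside the domains, Setd5+/- H3K27ac within 10 kb of their edges summed to 1899 kb, against 1740 kb in WT cells, a ratio of 1.09, where the same sum around all autosomal WT islands gave 1.28. The direction turned without chromosomes 1, 4 and 15: on the other autosomes the sums were 1377 kb in Setd5+/- cells and 1405 kb in WT cells, a ratio of 0.980 (1.15 around all islands there), and on those 3 chromosomes 522 kb in Setd5+/- cells and 334 kb in WT cells, a ratio of 1.56. Added length was greatest around Map2, a dendritic protein gene on chromosome 1, with 10.2 kb in Setd5+/- cells and none in WT cells. It was next around Hjurp, also on chromosome 1, with 10.2 kb in Setd5+/- cells and 0.4 kb in WT cells. Others were near Ptprc on chromosome 1 and at Cdk5rap2 on chromosome 4. On other autosomes they were near Sfi1 and at Npas3 and Fign.

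Chromosomes differed. The wide domains on chromosome 1 kept 93.5%, those on chromosome 15 91.6% and those on chromosome 4 83.3%, and those on the other 16 autosomes kept 78.1% together. The lowest were chromosome 10 with 71.3% and chromosome 11 with 71.7%. Chromosome 1 held 157 islands of 5000 bp or more in Setd5+/- cells and 34 in WT cells, and chromosome 15 held 54 in Setd5+/- cells and 25 in WT cells. Covered length on chromosome 1 was 6.25 Mb in Setd5+/- cells and 2.58 Mb in WT cells. The part of chromosome copy number in these counts was not tested.

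**Figure D4:**
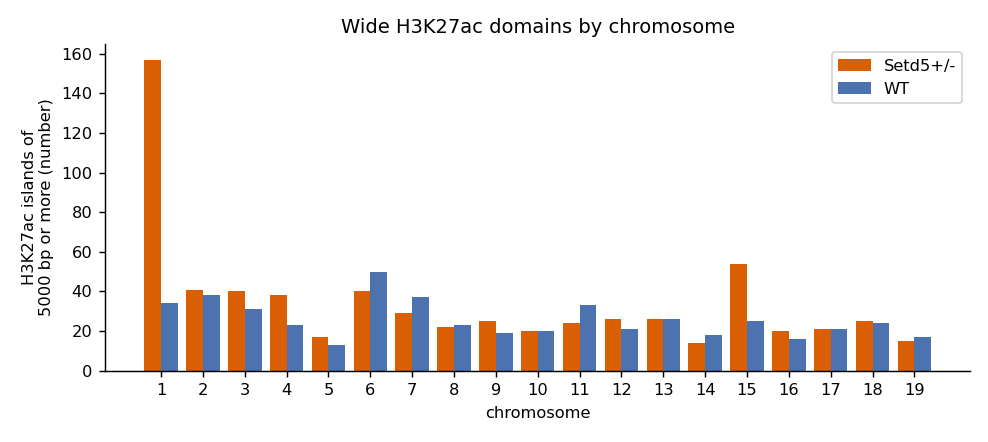
Number of H3K27ac islands of 5000 bp or more per autosome, with Setd5+/- left and WT right. Chromosome 1 has 157 in Setd5+/- cells and 34 in WT cells, and chromosome 15 has 54 in Setd5+/- cells and 25 in WT cells. Chromosome 6 has 40 in Setd5+/- cells and 50 in WT cells.

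The same rule applied to the Setd5+/- list gave 654 wide domains, of which 253 (38.7%) met a wide WT domain; in the other direction 246 of the 489 (50.3%) met a wide Setd5+/- domain. WT islands covered 70.3% of the length of the 654. Under 50% was covered in 139 of them (21.3%), where the background over all autosomal Setd5+/- islands was 37.2%, and 28 met no WT island (4.28%, against a background of 28.7%). In Setd5+/- islands of 2000 to 4800 bp these shares were 36.3% and 25.1%. Here too a longer region misses another list less easily. On autosomes other than 1, 4 and 15 the 405 domains were covered over 76.3%, near the 78.1% of the reverse comparison on the same chromosomes, and the 249 on chromosomes 1, 4 and 15 over 60.5%.

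Other marks inside the wide WT domains also differed in covered length between the genotypes. H3K4me1 covered 1851 kb in Setd5+/- cells and 2448 kb in WT cells, a ratio of 0.756, where all autosomes gave 0.726. H3K4me3 covered 1750 kb in Setd5+/- cells and 1646 kb in WT cells, a ratio of 1.06, against 1.08. H3K36me3 covered 978 kb in Setd5+/- cells and 1287 kb in WT cells, a ratio of 0.760, where all autosomes gave 1.07. H3K36me2 covered 434 kb in Setd5+/- cells and 494 kb in WT cells, a ratio of 0.879, against 1.76.

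The H3K36me3 ratio was lower than that of its whole list in wide domains and in islands of 2000 to 4800 bp, where it was 0.632. On autosomes other than 1, 4 and 15 it was 0.727 in wide domains and 0.976 over the list. The H3K36me2 ratio there was 0.625 in wide domains and 0.611 over the list. On these autosomes the H3K4me1 ratio was 0.724 in wide domains and 0.606 over the list, a wider gap than on all autosomes. The H3K4me3 ratio was 1.05 in wide domains and 1.04 over the list there. In the wide domains defined in Setd5+/- cells, H3K36me3 had a ratio of 0.878 on all autosomes and 0.738 without chromosomes 1, 4 and 15. At single domains, H3K36me3 covered 2.70% of the Sox2 domain in Setd5+/- cells and 50.5% in WT cells. It covered 29.0% of the Fabp7 domain in Setd5+/- cells and 54.8% in WT cells, and none of the Zic1 and Zic4 domain in Setd5+/- cells and 87.2% in WT cells. At Ptn it covered all of the domain in both. H3K36me3 was longer in Setd5+/- cells in 51 domains, shorter in 166 and equal in 272.

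**Figure D5:**
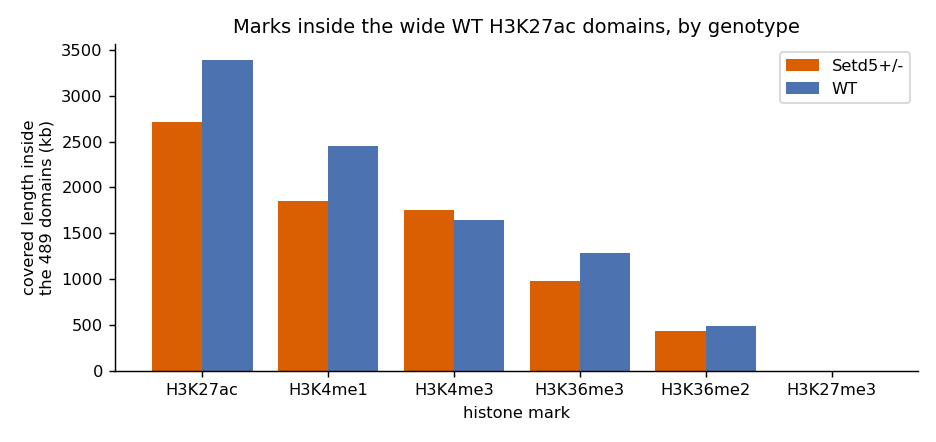
Summed length of each histone mark inside the 489 wide WT H3K27ac domains, in kb, with Setd5+/- left and WT right. H3K4me1 and H3K36me3 are shorter in Setd5+/- cells by ratios of 0.756 and 0.760, H3K4me3 is at 1.06, and H3K27me3 is at 0 in both; H3K27ac in WT cells is the full length by the choice of domains.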

How the data were processed

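Lists of islands were used for 13 libraries. The submitters' processing notes name FastQC for read quality, Bowtie2 (2.2.3) for alignment, SICER (1.1) for islands, and the builds GRCm38 and mm10. An 800 bp window, a 2400 bp gap and a false discovery rate of 0.01 are stated per the file headers for SETD5-V5, H3K36me3 and H3K36me2 alone. The fourth column is unnamed. Its deposited whole numbers were taken as counts of reads in the island, on the strength of the values. No normalisation is recorded and total depth is unknown; reads in islands ran from 1019278 to 5093126 per library, and Wilson intervals cover counting error only. Computation used pandas 2.3.3, numpy 2.4.6 and scipy 1.17.1 under Python 3.11.15, with figures in matplotlib 3.10.9. Width counts both end bases. Overlap means 1 bp or more, and length kept is the part of a WT domain inside Setd5+/- islands of the same mark. Setd5+/- reads per kb and the log2 density ratio use the full Setd5+/- islands that meet a domain, not the domain alone. With 1 library per group no test was run. Starts come from the RefSeq promoter table, gene spans from RefSeq GRCm38.p6.

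The members and the 14 gene lists were chosen with earlier results of these data known. Named genes follow a rule on width, reads per kb, H3K4me3 share, length not kept, length added within 10 kb and list membership; not all are printed. Overlap code was checked on simulated lists, with 100 domains removed and 100 shortened, and gave 100% of the expected lengths. Alternatives for width, stitching within 12.5 kb, lists and chromosomes are given in the closing section.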

Additional observations from a re-analysis of the deposited data

How the results depend on the processing

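Of 78 alternative values, 58 stayed near the main value, 19 moved and 1 changed sign. Near means inside a 95% Wilson interval with 489 domains as n, within 0.1 for log2 density and within 1.5 times for counts of genes. For length kept and mean covered shares, which are not counts of domains, that interval is only a yardstick and no error. With a width minimum of 10000 bp (42 domains) length kept in Setd5+/- cells was 89.1%, domains kept under 50% 2.38%, domains with no island 0%, H3K36me3 overlap 69.0% and SETD5-V5 overlap 23.8%; with 4000 bp (1057 domains) kept under 50% was 13.6% and H3K36me3 overlap 43.3%. Stitching islands within 12.5 kb gave 1520 regions, 67.7% kept, 21.4% under 50% kept, 68.3% under H3K4me1 and a log2 density of 0.013, against -0.05 in the main setting. The same number of islands, chosen by most reads, kept 83.3%, with 6.34% under 50% kept and 1.02% with no island. Lists without the 25% of islands with fewest reads per kb gave 4.65% with no island, 42.5% under H3K4me3 and 45.7% for H3K36me3. Requiring 50% overlap gave 34.6% for H3K36me3 and 4.70% for SETD5-V5, and counting only gene ends inside domains gave 146 genes in place of 362. Width as end minus start (433 domains), leaving out 3 dense domains and leaving out chromosome 6 were chosen after seeing the data, and none moved a value. No paired analysis was possible because each group has 1 library. The unknown total depth limits every comparison of covered length between genotypes.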

Other observations

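Of the 654 wide Setd5+/- domains, 28 (4.28%) met no WT H3K27ac island. The share was 28.7% of all autosomal Setd5+/- islands and 25.1% of those of 2000 to 4800 bp, and a longer region misses another list less easily. Of the 28 domains, 18 were on chromosomes 1, 4 and 15. The 2 widest, 38.8 kb on chromosome 9 with 53008 reads and 23.8 kb at Sfi1 on chromosome 11 with 2925 reads, held 1366 and 123 reads per kb, against a median of 26.4 over the 654. The third, 13.4 kb with 400 reads, lay 78.4 kb from Sox2 (chr3:34558201-34571600) and held 29.9 reads per kb. Others lay in Spats2l and Igfbp5 on chromosome 1 and in Hoxa3 (5.8 kb).

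Joined within 12.5 kb, the WT islands formed 427 regions that held at least 1 wide domain, and 51 held 2 or more. After Cwc22 those with most acetylated length in WT cells were at Lrig1, with 45.4 kb acetylated in Setd5+/- cells of 57.0 kb in WT cells, at Ptn (38.6 of 51.2 kb) and at Maml2 (31.2 of 50.0 kb). Lower shares were kept at Epn2 (40.6%), Slc4a4, a bicarbonate transporter gene (30.3%), and Msi2, the gene of a stem cell RNA-binding protein (47.6%).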
